A study of Homo sapiens with 12 samples.

Results

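Chromatin regulators are the proteins that move nucleosomes, write or read chemical marks on histones, or methylate DNA. This report follows 46 such genes in A375, an established human melanoma cell line, treated with the MMP2/MMP9 inhibitor SB-3CT, with interferon-γ (IFN-γ) or with both. The genes were taken by symbol from a list of 47 (ACTL6A to EZH2 in alphabetical order). They made up 46 of the 4918 genes analysed, whose symbols run from A1BG to FAM46B. EHMT2, the remaining gene of the list, was not analysed here. RNA had been sequenced from 12 samples in 4 groups of 3. The control samples carry the label none for treatment, and the treated groups received SB-3CT, IFN-γ, or SB-3CT+IFN-γ. Cells were exposed for 24 h, and the labels give no dose. All groups come from 1 line, so differences between lines or tumours are outside these values. Levels are FPKM (a fragment count divided by transcript length and by the mapped fragments of the sample), a scale per length. Changes are differences of mean log2(FPKM + 1), and they understate the change of genes with low FPKM. A gene is called higher or lower at an adjusted p under 0.05 (limma, Benjamini-Hochberg over all 4918 genes), with n = 3 per group throughout.

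Chromatin remodelers use ATP to slide, evict or exchange nucleosomes and fall into the SWI/SNF, ISWI, CHD and INO80-like families. Histone acetyltransferases such as CREBBP and EP300 add acetyl groups that bromodomain proteins such as BRD2 and BRD3 read. Polycomb complexes built around EZH1 or EZH2 and EED, HP1 proteins and the DNA methyltransferases are known for keeping genes silent. In melanoma, ARID1A, ARID1B and ARID2 are known as recurrently mutated subunits of SWI/SNF, and EZH2 as a gene with activating mutations. IFN-γ acts through a receptor at the cell surface, and its target genes include those for antigen presentation and CD274, which encodes PD-L1.

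The promoters of 5 regulators are shown. EZH2, CBX3 and BRD7 hold letters known from sites of E2F, the transcription factors of cell cycle genes, while BAZ2A and CHD8 were called higher with IFN-γ. Each window runs from 250 bases before to 50 bases after a transcription start in RefSeq (GRCh38.p14), 300 bases in all and written 5′ to 3′ on the gene's strand. Capitals mark a match to TTTGGCGC or TTTCCCGC, the E2F-type letters searched.
EZH2, start 1, chr7:148884242-148884541, minus strand: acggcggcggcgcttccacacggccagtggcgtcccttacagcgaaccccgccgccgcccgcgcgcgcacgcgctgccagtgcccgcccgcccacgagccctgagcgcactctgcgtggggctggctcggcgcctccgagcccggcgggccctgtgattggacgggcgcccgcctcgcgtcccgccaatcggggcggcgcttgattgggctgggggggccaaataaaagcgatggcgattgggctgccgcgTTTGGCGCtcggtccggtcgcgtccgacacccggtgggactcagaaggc
CBX3, chr7:26201193-26201492, plus strand: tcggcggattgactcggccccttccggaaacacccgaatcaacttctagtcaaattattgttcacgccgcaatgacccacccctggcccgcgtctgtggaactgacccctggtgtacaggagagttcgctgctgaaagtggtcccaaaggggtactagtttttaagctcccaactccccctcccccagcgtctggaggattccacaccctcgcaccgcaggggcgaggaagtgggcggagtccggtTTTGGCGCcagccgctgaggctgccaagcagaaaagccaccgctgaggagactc
BRD7, chr16:50368939-50369238, minus strand: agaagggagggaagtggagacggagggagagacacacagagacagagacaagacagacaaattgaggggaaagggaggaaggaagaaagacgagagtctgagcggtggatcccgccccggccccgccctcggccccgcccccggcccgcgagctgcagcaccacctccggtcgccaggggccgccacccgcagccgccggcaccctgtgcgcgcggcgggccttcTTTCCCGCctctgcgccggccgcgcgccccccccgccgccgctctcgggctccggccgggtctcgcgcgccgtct
BAZ2A, start 1, chr12:56636310-56636609, minus strand: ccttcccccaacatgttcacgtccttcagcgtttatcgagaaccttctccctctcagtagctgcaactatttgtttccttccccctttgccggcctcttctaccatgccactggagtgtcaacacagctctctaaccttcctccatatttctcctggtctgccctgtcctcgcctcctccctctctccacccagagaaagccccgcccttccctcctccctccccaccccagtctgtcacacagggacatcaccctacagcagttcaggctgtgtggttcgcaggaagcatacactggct
BAZ2A, start 2, chr12:56630277-56630576, minus strand: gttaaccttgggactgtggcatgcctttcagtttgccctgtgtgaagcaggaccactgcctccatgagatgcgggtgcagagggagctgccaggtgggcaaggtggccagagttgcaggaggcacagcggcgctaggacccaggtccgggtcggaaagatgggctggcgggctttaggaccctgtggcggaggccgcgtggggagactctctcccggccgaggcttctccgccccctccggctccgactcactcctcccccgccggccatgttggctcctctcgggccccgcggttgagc
CHD8, chr14:21437226-21437525, minus strand: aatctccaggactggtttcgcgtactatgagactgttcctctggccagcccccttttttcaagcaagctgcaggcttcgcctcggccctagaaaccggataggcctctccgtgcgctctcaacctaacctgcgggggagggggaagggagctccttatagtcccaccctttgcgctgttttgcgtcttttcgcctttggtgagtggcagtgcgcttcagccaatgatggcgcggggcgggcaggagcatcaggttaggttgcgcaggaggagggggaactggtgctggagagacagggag
The table of promoters held 62 windows of 37 regulators, and BAZ1A was not among them. The 2 motifs given here were searched on both strands, and overlapping matches of different motifs were each counted. TTTGGCGC stood in 0.652% of all 35116 windows and, among the regulators, in a CBX3 window and in 1 of the 2 EZH2 windows, the one shown. TTTCCCGC stood in 1.63% of all windows and in the BRD7 window alone among the regulators. Neither was in the windows of BAZ2A and CHD8 shown here, and all matches are descriptions of the letters only.

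The regulators span a wide range of levels. All 46 were above 0 in all 12 samples. Mean FPKM over all samples ran from 0.853 for ARID4A to 147 for CBX3, with a median of 5.4. BAZ2B, DNMT3B and ARID4A were the 3 regulators with a mean under 1 FPKM. Their transcripts are long: the canonical transcript had a median of 6771 bases, from 1854 in ACTL6A to 12849 in ASXL2, against a median of 2957 bases over all genes and 3217 over the 3080 genes within the same range of mean FPKM. Some share sequence with other genes, and whether counting used strand is not given in the sources used here. Of the canonical exon bases of CHD4, 90.1% also belong to a longer gene model on the same strand. For BRD7, 40.4% lie opposite exons of other genes, mainly ADCY7, and for BRD3 the share is 22.7%. The annotation holds 10 pseudogenes named after CBX3, 7 after BRD7 and 5 after CBX1, so the values of these genes are less certain.

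The IFN-γ labels were checked on genes known to respond. CD274 averaged 0.543 ± 0.105 FPKM (SD, n = 3) in the control samples, 0.63 ± 0.154 with SB-3CT, 21.7 ± 2.32 with IFN-γ and 14.7 ± 1.37 with SB-3CT+IFN-γ. CXCL10, a chemokine induced by IFN-γ, averaged 81.7 ± 3.97 FPKM with IFN-γ and 112 ± 13.7 with both agents, and was at or near 0 in the other 2 groups. Of 7 melanoma lineage markers, ERBB3, CSPG4, EDNRB and CDH19 exceeded a mean of 1 FPKM, while DCT, BIRC7 and CAPN3 did not. The summed level of the 7 markers was 115 to 119 FPKM in the control samples, 89.4 to 98.8 with SB-3CT, 87.9 to 92.6 with IFN-γ and 62.5 to 68.1 with both. Like the regulators it was lowest with both agents. With IFN-γ alone it lay below all control samples, while the summed level of the regulators (540 to 626 FPKM) reached below and above its control range (572 to 600). The part of the marker level in the changes below was not tested. Markers of epithelial, fibroblast, T, B and endothelial cells were each summed to under 1 FPKM in all samples, and among the monocyte markers CD68 alone was above 1 FPKM.

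The SB-3CT+IFN-γ samples stood apart in their overall level. Their median-ratio factors, which measure each sample's typical gene against the mean of all samples on the log2 scale, were −0.181, −0.182 and −0.206, against −0.02 to 0.117 in the other 9 samples. Over the 3177 genes with a mean of at least 1 FPKM, the median change of SB-3CT+IFN-γ against IFN-γ was −0.20 as deposited and 0.00 after median-ratio scaling. Against SB-3CT it was −0.21 as deposited. Counts over all regulators are therefore given on both scales where they differ. Less RNA of a gene per cell and fewer cells of a kind cannot be told apart in such bulk samples.

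On the deposited scale, most regulators were at their lowest with both agents together. The SB-3CT+IFN-γ group had the lowest mean of the 4 groups for 43 of 46 regulators, the exceptions being BAZ1A, BAZ2A and ASXL1. For 32 regulators, all 3 SB-3CT+IFN-γ samples lay below all 9 other samples, which held for 24.1% of all genes (1185). Both counts are for the deposited scale and were not repeated after median-ratio scaling. In that scaling 8 regulators changed sign against IFN-γ and 7 against SB-3CT, among them ACTL6A and CBX3 in each. The median deviation of the regulators from the control mean was −0.45, −0.41 and −0.38 in the 3 SB-3CT+IFN-γ samples. In the other groups it lay between −0.14 and 0.01 for SB-3CT and between −0.04 and 0.17 for IFN-γ. The summed FPKM of the regulators was 572 to 600 in the control samples, 496 to 564 with SB-3CT, 540 to 626 with IFN-γ and 409 to 457 with both.

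**Figure D1:**
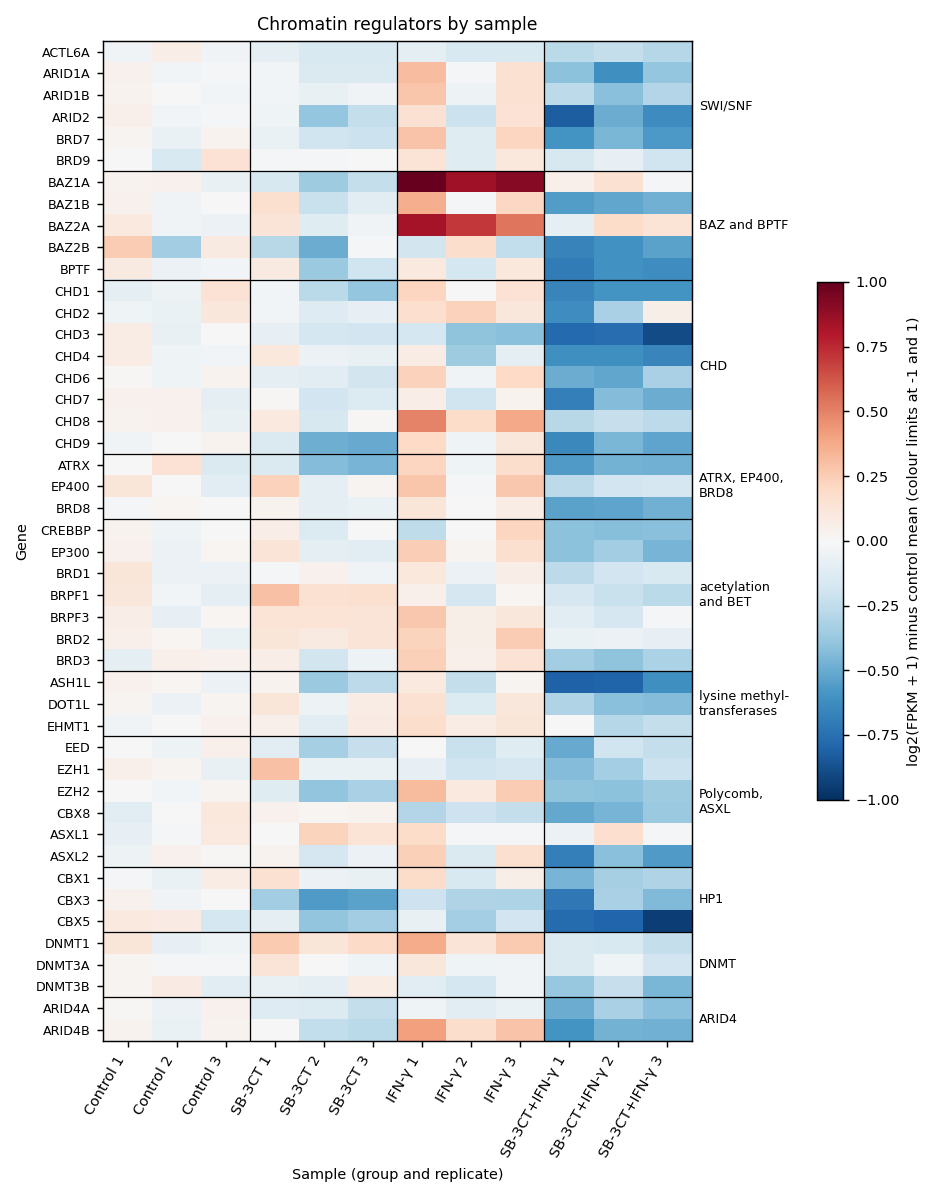
Heat map of the 46 chromatin regulators (rows, grouped by role) in the 12 samples (columns). Colour is log2(FPKM + 1) minus the control mean of that gene, blue for lower and red for higher. Most rows are blue in the 3 SB-3CT+IFN-γ columns, whose medians are −0.45, −0.41 and −0.38, and the red IFN-γ cells of BAZ1A and BAZ2A are the strongest rises.

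The first comparison asks what SB-3CT changed in cells exposed to IFN-γ. With SB-3CT+IFN-γ, 34 of the 46 regulators were lower than with IFN-γ alone and 0 were higher by limma. The background over all genes was 31.5% lower and 6.41% higher. Among the 3080 genes of the same FPKM range 44.2% were lower, against 73.9% of the regulators. At an unadjusted p under 0.05, 39 regulators were lower and 0 higher, with no share of all genes given here for that threshold. The median change of the regulators was −0.49 (range −0.86 to −0.02), and that of all genes −0.09. At a fold change over 1.5 with an unadjusted p under 0.05, 16 regulators were lower, where the background was 6.51% of all genes. After median-ratio scaling 26 were lower and 0 higher, and all 26 were among the 34. The background was then 16.5% lower and 15.5% higher. In that scaling 8 regulators changed sign: ACTL6A, BRD9, BRPF1, EED, CBX8, ASXL1, CBX3 and DNMT3A, none of which had been called. The 8 calls lost were those of ARID1B, BRD2, CBX1, CREBBP, DNMT3B, DOT1L, EHMT1 and EP400.

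Transcript length moved with this change, and the regulators are long. Across the 46 regulators, Spearman's rho between transcript length and change was −0.49, and across the 3066 genes of the FPKM range with a length it was −0.58. These points share the same 6 samples, and genes are not independent replicates. In the FPKM range, 71.5% of the 776 genes with a transcript of 5000 bases or more were lower, and 35.1% of the 2290 shorter genes. Of the regulators, 29 of 33 with 5000 bases or more (87.9%) and 5 of 13 shorter ones (38.5%) were lower, so the share among the shorter regulators lay near that of other shorter genes. After median-ratio scaling, 24 of the 33 long regulators (72.7%) and 2 of the 13 shorter ones (15.4%) were lower, against 48.6% of the long and 15.3% of the shorter genes. When each sample's trend with length was removed and its median kept, 29 regulators were lower, with a background of 42.4%. When the summed FPKM was kept in place of the median, 15 were lower, with a background of 18.9%, and ASXL1 was higher. Among the calls lost there were ARID1A (−0.21, adjusted p = 0.0945), ASXL2 (−0.27, adjusted p = 0.0611), BAZ2A (−0.20, adjusted p = 0.143), DNMT1 (−0.06, adjusted p = 0.353) and EP300 (−0.17, adjusted p = 0.0799). The median change of the regulators was −0.13 in the last setting.

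**Figure D2:**
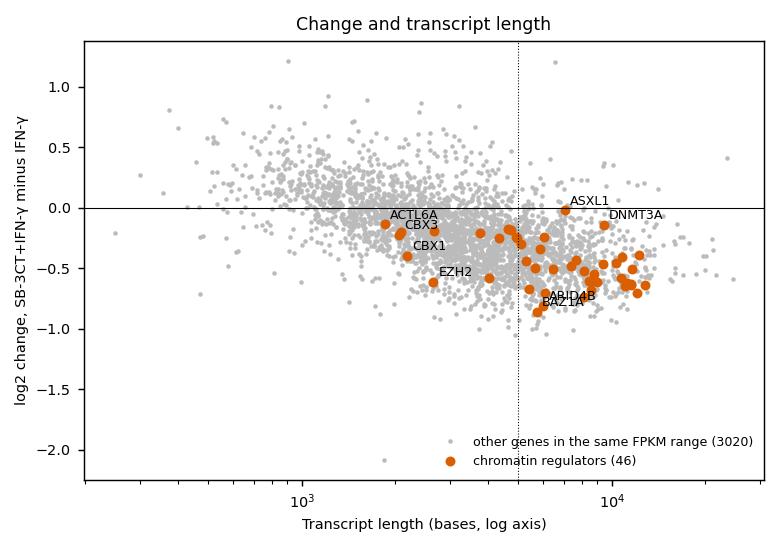
Change in log2(FPKM + 1) of SB-3CT+IFN-γ against IFN-γ (vertical axis) by length of the canonical transcript in bases (horizontal log axis). Orange points are the 46 regulators, grey points the other 3020 genes in the same range of mean FPKM with a length, and the dotted line marks 5000 bases. Longer transcripts lie lower in both colours, with a Spearman's rho of −0.49 over the regulators.

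The ISWI-associated genes of the BAZ family and BPTF had the lowest median change of the 10 groups of regulators, −0.65, and all 5 were lower. Counts by group, here and below, stand beside 31.5% of all genes lower. In the FPKM range the share was 44.2%, and 71.5% for transcripts of 5000 bases or more. The groups are small and differ in transcript length, and differences between them were not tested. BAZ1A (chr14:35221937-35344853 in hg19) encodes ACF1, the partner of the ISWI ATPase in a nucleosome-spacing complex. It measured 9.82, 8.63 and 9.08 FPKM with IFN-γ and 4.55, 4.96 and 4.32 with SB-3CT+IFN-γ. The groups did not overlap and the change was −0.86 (SE 0.08, adjusted p = 0.00207), the largest fall among the regulators. BAZ1B (chr7:72854736-72936623), the Williams syndrome transcription factor, measured 18.3, 13.8 and 16.4 FPKM with IFN-γ and 9.2, 9.49 and 9.77 with both. Its change was −0.70 (SE 0.10, adjusted p = 0.0027). BPTF (chr17:65821619-65980494), the largest subunit of the NURF remodeler, measured 3.59, 2.8 and 3.64 FPKM against 1.65, 1.83 and 1.8, a change of −0.65 (SE 0.10). BAZ2A (chr12:56989380-57030600), known for silencing ribosomal RNA genes, measured 20.9, 19.1 and 16.9 FPKM against 10.5, 13 and 12.6, a change of −0.62 (SE 0.10). For both, all SB-3CT+IFN-γ samples lay below all IFN-γ samples. BAZ2B, the fifth, changed by −0.52 at a mean of 0.41 FPKM with both agents, and its adjusted p rose from 0.00995 to 0.0505 without SB-3CT+IFN-γ replicate 1.

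Of the 8 CHD remodelers 7 were lower, with a median change of −0.54. CHD1 (chr5:98189689-98264711), which reads methylated histone H3 at active genes, measured 5.92, 4.99 and 5.58 FPKM with IFN-γ and 2.77, 2.95 and 2.95 with both, a change of −0.74 (SE 0.09, adjusted p = 0.00209). CHD9 measured 2.77, 2.19 and 2.55 FPKM against 1.11, 1.39 and 1.27, a change of −0.63 (SE 0.09). CHD8, a remodeler linked to β-catenin and p53 targets, measured 9.11, 7.13 and 8.33 FPKM against 4.91, 5.13 and 4.99, a change of −0.61 (SE 0.09). The 2 groups were apart in all 3 genes. CHD3 and CHD4, the alternative ATPases of the NuRD deacetylase complex, changed by −0.48 (SE 0.09) and −0.51 (SE 0.10). CHD6 and CHD7 changed by −0.58 and −0.51. CHD2 was not called, at −0.47 (SE 0.16, adjusted p = 0.0598), and its SB-3CT+IFN-γ samples were spread from 2.29 to 4.27 FPKM.

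SWI/SNF subunits and the ATRX and EP400 group moved the same way. In SWI/SNF, 4 of 6 were lower, with a median change of −0.53. ARID2 (chr12:46123489-46301823), the DNA-binding subunit of the PBAF form, measured 2.15, 1.45 and 2.15 FPKM with IFN-γ and 0.606, 1.02 and 0.841 with both, a change of −0.68 (SE 0.13, adjusted p = 0.00642). BRD7, another PBAF subunit, measured 19.8, 14.7 and 18.8 FPKM against 10.2, 11.4 and 10.5, a change of −0.67 (SE 0.11). ARID1A (chr1:27019727-27108595), the matching subunit of the BAF form, measured 13.1, 10.3 and 11.6 FPKM against 7.59, 6.45 and 7.72, a change of −0.62 (SE 0.10, adjusted p = 0.00432). No sample of the pair of groups overlapped for these 3 genes, although IFN-γ replicate 2 was the lowest of its group in each. ARID1B, its paralog, changed by −0.45, with an adjusted p of 0.0533 after median-ratio scaling. The ARID1B call failed in 4 of the 6 fits that left out a sample. The short subunits ACTL6A, an actin-related protein shared by several remodelers, and BRD9, of the non-canonical form, were not called at −0.13 and −0.19. ATRX, which helps to deposit a histone variant at repeats, measured 3.06, 2.41 and 2.96 FPKM against 1.36, 1.53 and 1.51, a change of −0.62 (SE 0.10). BRD8 and EP400, both of the TIP60 acetyltransferase complex, changed by −0.58 (SE 0.06) and −0.39 (SE 0.10), so that all 3 genes of this group were lower. The call of EP400 was lost after median-ratio scaling (−0.18, adjusted p = 0.121) and in 5 of the 6 fits that left out a sample.

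Acetyltransferases, their scaffolds and the BET readers changed less. Of 7 genes 4 were lower, with a median change of −0.25. EP300 (chr22:41488596-41576081) measured 5.82, 4.86 and 5.4 FPKM with IFN-γ and 3.33, 3.52 and 3.17 with both, a change of −0.55 (SE 0.09, adjusted p = 0.00366). Its paralog CREBBP (chr16:3775055-3930714) averaged 7.17 ± 1.31 FPKM (SD, n = 3) against 5.11 ± 0.0314, a change of −0.41 (SE 0.12, adjusted p = 0.0308). The 2 acetyltransferases thus went the same way, with the wider spread in CREBBP. BRD3 changed by −0.50. BRD2, a BET reader on chr6:32936371-32949282, averaged 1.48 ± 0.181 FPKM against 1.09 ± 0.0138, a change of −0.25 (SE 0.08, adjusted p = 0.0395). After median-ratio scaling CREBBP (−0.20, adjusted p = 0.282) and BRD2 (−0.12, adjusted p = 0.223) were no longer called. Each of these 2 calls also failed in 5 of the 6 fits that left out a sample. BRD1, BRPF1 and BRPF3, scaffolds of the MOZ and HBO1 acetyltransferase complexes, were not called, with changes of −0.24, −0.19 and −0.24.

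Histone and DNA methyltransferases divided by gene. ASH1L, DOT1L and EHMT1, which methylate different lysines of histone H3, were all lower. ASH1L (chr1:155305059-155532953) measured 4.63, 3.46 and 4.35 FPKM with IFN-γ and 2.01, 2.02 and 2.44 with both, a change of −0.70 (SE 0.11, adjusted p = 0.00392). DOT1L and EHMT1 changed by −0.43 and −0.30, and neither was called after median-ratio scaling. Their calls failed in 4 and 5 of the 6 fits that left out a sample. DNMT1 (chr19:10244018-10341962), the methyltransferase that copies DNA methylation after replication, measured 53.3, 44.8 and 49.3 FPKM against 36.8, 36.7 and 34.5, a change of −0.44 (SE 0.07, adjusted p = 0.00392). Of the de novo enzymes, DNMT3B changed by −0.25 (adjusted p = 0.037) at 0.657 FPKM with both agents. Its call was lost after median-ratio scaling (adjusted p = 0.181) and in 4 of the 6 fits that left out a sample. DNMT3A was not called at −0.14. All 3 DNA methyltransferases had groups that did not overlap.

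Among the Polycomb and ASXL genes 2 of 6 were lower, a share near the 31.5% of all genes. EZH2 (chr7:148504349-148581413), the main histone H3 methyltransferase of Polycomb complex PRC2, measured 17.4, 14.8 and 16.6 FPKM with IFN-γ and 10.2, 10.1 and 10.6 with both. The change was −0.61 (SE 0.07, adjusted p = 0.00209). With 2654 transcript bases EZH2 was a short regulator, and it was still lower at −0.43 (adjusted p = 0.00374) once the trend with length was taken out and the summed FPKM held. EED, its partner, EZH1, its paralog, and CBX8, a PRC1 subunit, were not called at −0.20, −0.18 and −0.21. ASXL2, a cofactor of the deubiquitinase BAP1, measured 5.01, 3.6 and 4.68 FPKM against 2.17, 2.82 and 2.44, a change of −0.64 (SE 0.13, adjusted p = 0.00734). Its paralog ASXL1 was the least changed regulator, with 15.3, 13.2 and 13.1 FPKM against 12.7, 15.1 and 13.2 and a change of −0.02 (SE 0.09, adjusted p = 0.897). The 2 ASXL paralogs have 7052 and 12849 transcript bases, both above the median of the regulators.

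HP1 proteins bind methylated histone H3 in silent chromatin. CBX5 (HP1α) measured 5.21, 4.16 and 4.71 FPKM with IFN-γ and 2.83, 2.77 and 2.41 with both, a change of −0.63 (SE 0.10, adjusted p = 0.00354). CBX1 (HP1β) changed by −0.40 (adjusted p = 0.0129), and by −0.16 (adjusted p = 0.126) after median-ratio scaling. The CBX1 call failed in 3 of the 6 fits that left out a sample. CBX3 (HP1γ), at 150 ± 6.32 FPKM with IFN-γ against 129 ± 17.7 with both, was not called at −0.22 (SE 0.10, adjusted p = 0.122). Both genes of the SIN3 deacetylase subunits ARID4A and ARID4B were lower. ARID4B (chr1:235294949-235491534) measured 4.84, 3.95 and 4.35 FPKM against 1.9, 2.15 and 2.14, a change of −0.81 (SE 0.09, adjusted p = 0.00209). ARID4A, under 1 FPKM in all samples of these 2 groups, changed by −0.34. On the deposited scale, 42 of the 46 regulators had all SB-3CT+IFN-γ samples below all IFN-γ samples, against 39.6% of all genes.

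**Figure D3:**
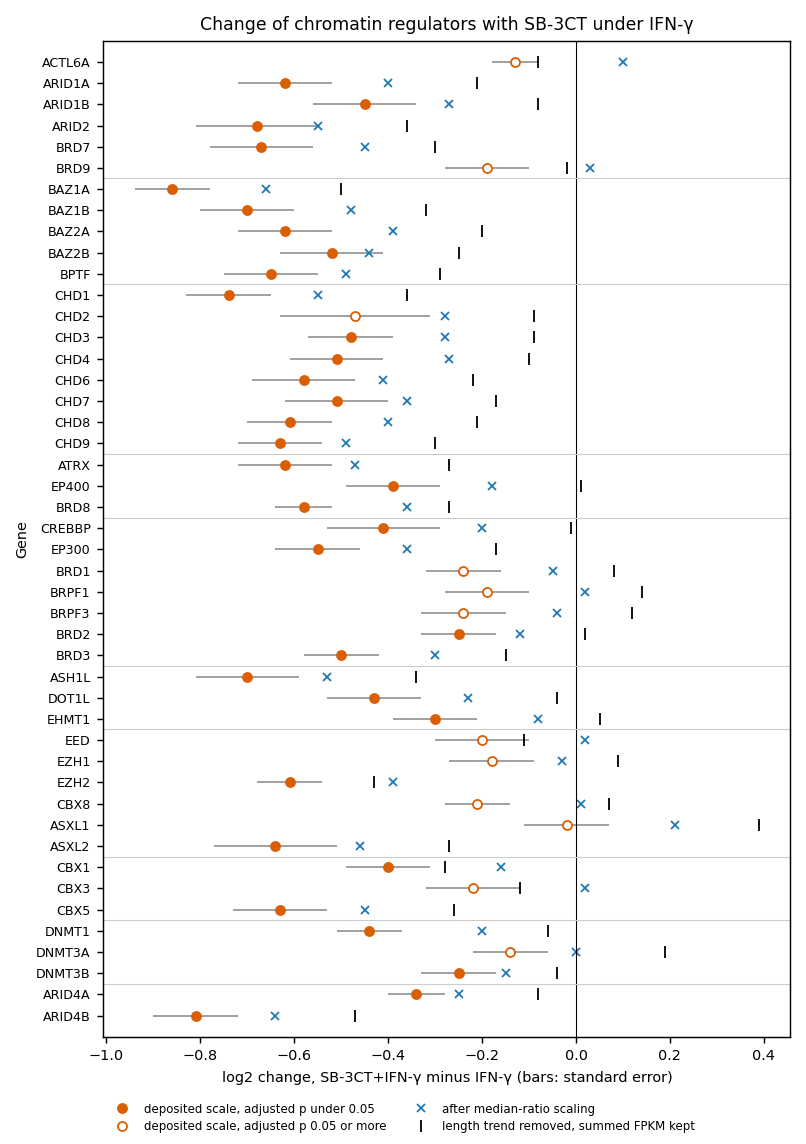
Change in log2(FPKM + 1) of each regulator, SB-3CT+IFN-γ minus IFN-γ, by role. Circles with standard error bars are the deposited scale, filled where the adjusted p was under 0.05. Crosses give the change after median-ratio scaling and vertical ticks the change after the trend with length was taken out and the summed FPKM held. All 46 circles lie below 0, from −0.86 in BAZ1A to −0.02 in ASXL1, and each cross lies to the right of its circle.

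Without IFN-γ, SB-3CT changed few regulators. CBX3 was the single regulator called lower of 46, and 0 were called higher, against a background of 6.87% lower and 5.37% higher. At an unadjusted p under 0.05, 10 were lower and 2 higher, with no share of all genes given here for that threshold. The median change was −0.06 (range −0.48 to 0.20). CBX3 (chr7:26240782-26253227) averaged 181 ± 4.92 FPKM in the control samples (176 to 186) and 129 ± 10.7 with SB-3CT (122 to 142). The change was −0.48 (SE 0.06, adjusted p = 0.00822). The groups were apart, but the adjusted p rose above 0.05 in 4 of the 6 fits that left out 1 sample, to 0.0598 without SB-3CT replicate 3. EZH2 measured 13.8, 13.5 and 14.1 FPKM in the control samples and 12.6, 10.3 and 10.8 with SB-3CT. Its change of −0.28 (SE 0.08) missed the threshold (adjusted p = 0.0557) and passed it after median-ratio scaling (−0.25, adjusted p = 0.0399). DNMT1 measured 44.5, 38.7 and 39.8 FPKM against 49.2, 44.5 and 46.9, a change of 0.19 (SE 0.06, adjusted p = 0.0955) that passed after scaling (0.22, adjusted p = 0.0453). ARID1A (−0.11), BRD2 (0.11), CREBBP (−0.02) and EP300 (−0.03) were not called. Without SB-3CT replicate 1, 8 regulators were lower: ARID2, ASH1L, ATRX, BRD7, CBX3, CHD9, EED and EZH2. No share of all genes is given here for that fit, so the count does not show whether this is particular to the regulators.

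IFN-γ alone changed 5 of 46 regulators. BAZ1A, BAZ2A and CHD8 rose and CHD3 and CBX3 fell, against a background of 8.46% higher and 11% lower. The median change was 0.06 (range −0.33 to 0.92). BAZ1A measured 4.49, 4.52 and 4.1 FPKM in the control samples and 9.82, 8.63 and 9.08 with IFN-γ. The rise of 0.92 (SE 0.07, adjusted p = 0.000478) was the largest change of a regulator in any comparison. BAZ2A measured 12.2, 11 and 10.8 FPKM against 20.9, 19.1 and 16.9, a change of 0.69 (SE 0.09, adjusted p = 0.00347). These 2 BAZ genes kept their calls in each of the 6 fits that left out a sample. CHD8 measured 6.34, 6.4 and 5.81 FPKM against 9.11, 7.13 and 8.33, a change of 0.35 (SE 0.09, adjusted p = 0.0461). CHD3 measured 10.2, 9.14 and 9.63 FPKM against 8.43, 7.07 and 6.99, a change of −0.33 (SE 0.08, adjusted p = 0.0396). The calls of CHD8 and CHD3 each failed in 5 of the 6 fits that left out a sample, with adjusted p up to 0.144 without Control replicate 3 and 0.128 without IFN-γ replicate 3. CBX3 fell from 181 ± 4.92 to 150 ± 6.32 FPKM, a change of −0.27 (SE 0.05, adjusted p = 0.0109), with an adjusted p of 0.0517 without IFN-γ replicate 3. EZH2 (0.22, adjusted p = 0.0658) and DNMT1 (0.26, adjusted p = 0.078) missed the threshold with all IFN-γ samples above all control samples, and both passed after median-ratio scaling, as did ARID4B and EHMT1. That scaling gave 7 regulators higher and 2 lower, with a background of 11.8% and 10.7%. ARID1A (0.15), BRD2 (0.18), CREBBP (−0.01) and EP300 (0.15) were not called. Without IFN-γ replicate 2, 8 regulators were higher, and without IFN-γ replicate 3, 2 were higher and neither fall was called. These fits are likewise given without a share of all genes.

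**Figure D4:**
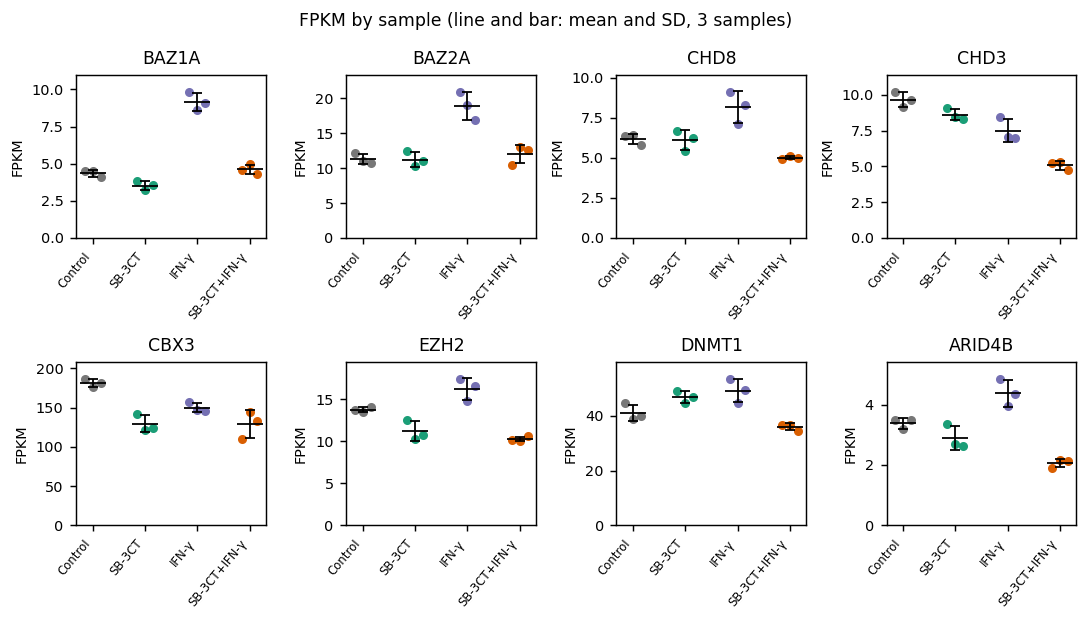
FPKM of BAZ1A, BAZ2A, CHD8, CHD3, CBX3, EZH2, DNMT1 and ARID4B in each sample (points) by group, with the mean (line) and SD (bar) of 3 samples. All vertical axes start at 0. BAZ1A stands at 8.63 to 9.82 FPKM with IFN-γ and at or below 4.96 elsewhere, and CBX3 is highest in the control samples at 176 to 186.

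Adding IFN-γ to SB-3CT lowered many regulators on the deposited scale. With SB-3CT+IFN-γ, 31 were lower and 1 was higher than with SB-3CT, against a background of 32.7% lower and 7.85% higher. The median change was −0.33. After median-ratio scaling 6 were lower and 2 higher, with a background of 11.1% and 13.4%. The share of regulators lower was then near that of all genes, and the share higher was below it. The count thus moved more with the scale than in the first comparison. Without SB-3CT+IFN-γ replicate 1, 2 or 3, the count was 16, 19 or 18 lower. No share of all genes is given here for these fits, so whether the drop is particular to the regulators is not shown. CHD3 measured 9.07, 8.43 and 8.34 FPKM with SB-3CT and 5.21, 5.29 and 4.74 with both, a change of −0.66 (SE 0.06, adjusted p = 0.000917). CHD4 (chr12:6679248-6723690) measured 44.2, 39.2 and 38.8 FPKM against 26.3, 26.4 and 25.6, a change of −0.62 (SE 0.06, adjusted p = 0.000797). The NuRD ATPases were the 2 largest falls, and both were still called after scaling, at −0.45 and −0.38. CBX5 (−0.56, SE 0.10), ASH1L (−0.54, SE 0.13) and ASXL2 (−0.49, SE 0.10) followed, and of these CBX5 was still called after scaling (−0.37, adjusted p = 0.0284). BAZ1A was the regulator that rose, from 3.81, 3.2 and 3.54 FPKM to 4.55, 4.96 and 4.32, a change of 0.31 (SE 0.08, adjusted p = 0.0242). Its change was 0.52 (adjusted p = 0.00411) after scaling, and its adjusted p reached 0.0811 without SB-3CT+IFN-γ replicate 2. ACTL6A, lower as deposited (−0.13, adjusted p = 0.0281), was the other regulator called higher after scaling (0.11, adjusted p = 0.0404). ARID1A (−0.36), BRD2 (−0.18), CREBBP (−0.40), DNMT1 (−0.37) and EP300 (−0.38) were lower, none of them after scaling. EZH2 was not called, at −0.11 (SE 0.08, adjusted p = 0.306), with 12.6, 10.3 and 10.8 FPKM against 10.2, 10.1 and 10.6.

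The comparisons of SB-3CT+IFN-γ with IFN-γ and with SB-3CT share the SB-3CT+IFN-γ samples, and their difference was not tested. In EZH2 the changes were −0.61 against IFN-γ and −0.11 against SB-3CT, and in CBX8 they were −0.21 and −0.48. ACTL6A changed by −0.13 in both comparisons and BRPF3 by −0.24 in both. All of these changes are on the deposited scale. After median-ratio scaling ACTL6A was 0.10 against IFN-γ and 0.11 against SB-3CT, and BRPF3 was −0.04 and −0.03.

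The last comparison asks whether the SB-3CT change differed with and without IFN-γ, as an interaction term over all 12 samples. For 23 of 46 regulators the SB-3CT change was lower under IFN-γ than without it, and for 0 it was higher by limma, against a background of 17.6% and 4.74%. At an unadjusted p under 0.05 the counts were 33 and 0, again without a share of all genes. The median difference was −0.39. In the FPKM range 25.9% of genes were lower by this test, 33.9% of those with 5000 bases or more and 23.4% of shorter ones. Of the regulators, 18 of 33 long ones (54.5%) and 5 of 13 shorter ones (38.5%) were lower. Spearman's rho between transcript length and this difference was −0.34 across the regulators and −0.45 across the 3066 genes of the range. Once the trend with length was taken out and the summed FPKM held, 6 regulators were lower. Whether this exceeds the share of all genes in that fit is not given here. BAZ1B had the largest difference, at −0.65 (SE 0.15, adjusted p = 0.0124), with an SB-3CT change of −0.06 without IFN-γ and −0.70 under it. ARID4B followed at −0.64 (SE 0.13, adjusted p = 0.00835), with changes of −0.17 and −0.81. DNMT1 differed by −0.63 (SE 0.10, adjusted p = 0.00469), with changes of 0.19 and −0.44. In DNMT1 the change thus ran upward without IFN-γ, short of the threshold, and downward under it. BAZ1A differed by −0.61 (SE 0.11, adjusted p = 0.00571) and BAZ2A by −0.60 (SE 0.14, adjusted p = 0.0124). EP300 (−0.52, adjusted p = 0.0125), ARID1A (−0.51, adjusted p = 0.015), BRD2 (−0.36, adjusted p = 0.019) and EZH2 (−0.33, adjusted p = 0.0427) were also called, and CREBBP was not (−0.38, adjusted p = 0.0748). The call of EZH2 failed in 10 of the 12 fits that left out a sample, with an adjusted p up to 0.0979 without IFN-γ replicate 1. After median-ratio scaling 7 were lower, with a background of 5.59%. By length these were 6 of the 33 long regulators (18.2%) and 1 of the 13 shorter ones (7.69%). In the FPKM range 13.1% of the long genes and 6.55% of the shorter ones were lower. ACTL6A and CBX3 were then higher, against 7.77%. Of those named, DNMT1 (−0.42), BAZ1A (−0.43), BAZ1B (−0.46), ARID4B (−0.49) and EP300 (−0.36) were still called. Leaving out 1 sample gave 13 to 28 regulators, with 13 without Control replicate 2, 14 without IFN-γ replicate 3 and 15 without IFN-γ replicate 1. These fits too are given without a share of all genes.

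**Figure D5:**
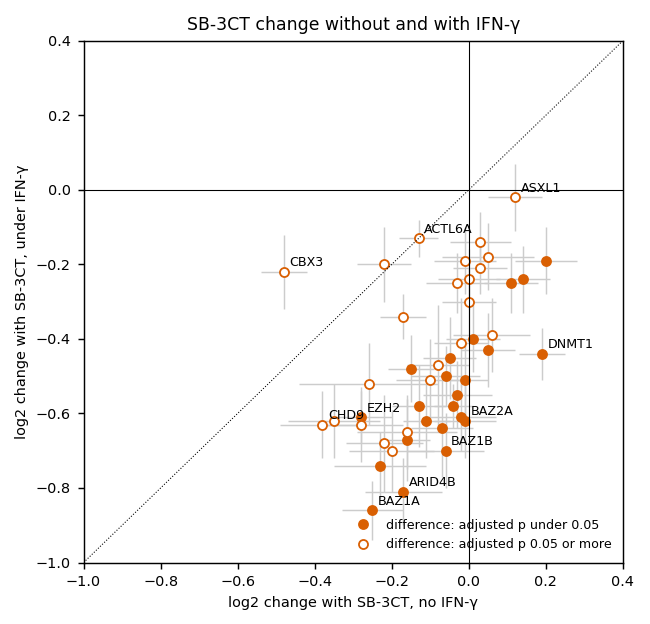
Change in log2(FPKM + 1) with SB-3CT in the absence of IFN-γ (horizontal axis) and under IFN-γ (vertical axis) for the 46 regulators, with standard errors. The dotted diagonal marks equal change, and filled points have an adjusted p under 0.05 for the difference. Filled points lie below the diagonal, such as DNMT1 at 0.19 and −0.44, and CBX3 lies above it at −0.48 and −0.22.

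Another 61 genes of chromatin biology outside the list were measured the same way. With SB-3CT+IFN-γ, 32 of them were lower and 3 higher than with IFN-γ, with a median change of −0.27. That is 52.5% lower and 4.92% higher, beside the background of 31.5% and 6.41%. After median-ratio scaling 17 were lower and 10 higher, beside 16.5% and 15.5% of all genes. Their median change was then −0.07. On the deposited scale, the largest falls were in ATAD2 (−1.0, SE 0.11), a bromodomain ATPase, DEK (−0.88, SE 0.08), a DNA-binding chromatin protein, and ARID5B (−0.78, SE 0.10). The 3 that rose were DPY30 (0.50, SE 0.06), a shared subunit of histone methyltransferase complexes, ENY2 (0.47, SE 0.07), a small subunit of SAGA, and BCL7C (0.28, SE 0.08), a SWI/SNF subunit. ARID5B and ATAD2 had risen with IFN-γ against the control samples, by 0.82 (adjusted p = 0.00311) and 0.43 (adjusted p = 0.0222). Over these 61 genes, 4 were lower with SB-3CT (6.56%, background 6.87%) and 2 higher (background 5.37%). With IFN-γ 3 were lower (4.92%, background 11%) and 8 higher (13.1%, background 8.46%). With SB-3CT+IFN-γ against SB-3CT, 25 were lower (41%, background 32.7%) and 6 higher (background 7.85%). In this comparison 4 were lower and 7 higher after median-ratio scaling, beside 11.1% and 13.4% of all genes.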

How the data were processed

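RNA of 12 A375 samples was sequenced as 150-base paired-end reads. The authors aligned reads to hg19 with HISAT2 (2.0.5 per the submitters' processing notes) and calculated FPKM with StringTie (1.3.3). The annotation used and the number of reads are not given in the sources used here, so depth is unknown, and no further scaling between samples is stated. The deposited values are on a log2 scale: they behave as log2(FPKM + 1), the maximum being 12.16, and no logarithm was taken again, although the design had foreseen FPKM. FPKM was recovered as 2 to the power of the value minus 1 and summed to 121928 to 129692 per sample over the 4918 genes. Columns were matched to samples by name, NC to the control samples, and 0 sample columns stayed out of use.

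Each pair of groups was fitted with limma 3.58.1 in R 4.3.3 (lmFit, eBayes with trend), without a filter, and the interaction over all 4 groups. The check of replicate numbers gave correlations of −0.39 to 0.17, so samples were not paired. The study says in general that its experiments were repeated independently, but no label ties these replicates to separate cultures, so p-values measure only the spread between these samples. The fitting code was tested on simulated data. Alternatives were median-ratio scaling, quantile normalization, 0.1 in place of 1 as pseudocount, a minimum mean FPKM of 1, all 4 groups in one fit, a replicate block, eBayes without trend, each sample left out, and taking out, sample by sample, the dependence on transcript length (a natural spline with 4 degrees of freedom on log2 length). Positions and lengths of canonical transcripts came from GENCODE lifted to GRCh37, the assembly of hg19, where 4458 genes matched by symbol and 429 by an older symbol (99.4% with a length).

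The members and gene lists were chosen with earlier results of these data known. Named first were the 15 largest changes among regulators called for SB-3CT+IFN-γ against IFN-γ and up to 5 rises and 5 falls in each other comparison, with ARID1A, BRD2, CREBBP, DNMT1, EP300 and EZH2 always named, sample values for at most 20 regulators, and the 3 largest falls and rises among other chromatin genes. The other regulators were named after their values were seen, to account for each. ASXL1 sample values were added in the same way. Other motifs that were searched are not reported here.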

Additional observations from a re-analysis of the deposited data

Results flagged for a closer look

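The SB-3CT change of 23 regulators was lower under IFN-γ than without it by the interaction test, beside 17.6% of all genes. These results are listed because 2 effects of the same agent differed. The differences of log2 changes were −0.65 in BAZ1B, −0.64 in ARID4B, −0.63 in DNMT1, −0.61 in BAZ1A and −0.60 in BAZ2A. They were −0.52 in EP300, −0.51 in ARID1A, −0.36 in BRD2 and −0.33 in EZH2. The EZH2 call failed in 10 of the 12 fits that left out a sample. After median-ratio scaling 7 regulators were still lower by this test, beside 5.59% of all genes. BAZ2A, ARID1A, BRD2 and EZH2 were no longer called in that scaling. Once the trend with length was taken out and the summed FPKM held, 6 were, with no share of all genes given here for that fit. With 3 samples a group, single samples were not tested for standing apart.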

How the results depend on the processing

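Depth is unknown and each group holds 3 samples, so the spread rests on few values. The cause of the shifts below was not tested. Counts in this section are given without the share of all genes in the same fit. They describe how the calls depend on the processing, and do not show whether that dependence is particular to the regulators. In SB-3CT+IFN-γ against IFN-γ, the 34 lower regulators became 22 with quantile normalization and 15 with the length trend removed and summed FPKM kept, which also gave 1 higher. Leaving out 1 sample gave 26 to 37 lower. In SB-3CT against Control, 1 was lower, and the count was 2 with median-ratio scaling, a pseudocount of 0.1 or length removed with the median kept, 3 with quantile normalization or length removed with summed FPKM kept, 4 with all groups in one fit and 6 with a mean FPKM of at least 1. Leaving out 1 sample gave 0 to 8. Higher counts were 1 with median-ratio scaling, quantile normalization, the FPKM minimum and length removed with the median kept, and 2 with summed FPKM kept. In IFN-γ against Control, 3 higher became 7 with median-ratio scaling, 6 with quantile normalization, the FPKM minimum or length removed with summed FPKM kept, and 5 with all groups in one fit, which gave 4 lower in place of 2. Leaving out 1 sample gave 2 to 8 higher and 0 to 2 lower. In SB-3CT+IFN-γ against SB-3CT, 31 lower became 6 with median-ratio scaling and 12 with quantile normalization or length removed with summed FPKM kept, and 1 higher became 2 with median-ratio scaling and with summed FPKM kept. Leaving out 1 sample gave 16 to 26 lower and 0 to 1 higher. The interaction gave 7 lower with median-ratio scaling or quantile normalization and 6 with summed FPKM kept, against 23, and 2 higher with median-ratio scaling. Leaving out 1 sample gave 13 to 28 lower and 0 to 1 higher.

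The replicate numbers only name samples. With the replicate block, SB-3CT+IFN-γ against SB-3CT gave 12 lower and 0 higher, and the other counts were 32 lower (SB-3CT+IFN-γ against IFN-γ), 1 lower (SB-3CT against Control) and 26 lower (interaction), and IFN-γ against Control gave 3 higher and 2 lower.

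Of 59 changes of single named genes, 25 stayed on their side of the threshold with the same sign in all alternatives, 29 changed side in at least 1 and 6 changed sign. BRD2 in SB-3CT+IFN-γ against IFN-γ was 0.02 and ARID1A in SB-3CT against Control 0.01 with length removed and summed FPKM kept. In SB-3CT against Control, CREBBP was 0.00 with median-ratio scaling, 0.03 with quantile normalization, 0.06 and 0.09 with length removed (median and summed FPKM kept), and −0.07 to 0.03 when 1 sample was left out. EP300 was 0.05 with quantile normalization, 0.05 and 0.08 with length removed, and −0.11 to 0.01 when 1 sample was left out. In IFN-γ against Control, CREBBP was 0.02 with median-ratio scaling and −0.13 to 0.11 when 1 sample was left out, with 0.11 without IFN-γ replicate 1. In SB-3CT+IFN-γ against SB-3CT, EZH2 was 0.12 with median-ratio scaling, 0.05 with quantile normalization and 0.05 with length removed and summed FPKM kept. None of these but BRD2 had been called.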
